A study of Homo sapiens with 12 samples.

Results

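The estradiol response of endometrial cancer cells labelled as MTDH knockout was measured on 6 of the 12 arrays of the study. The arrays were chosen by their labels: 3 samples of knockout cells treated with 10 nM estradiol for 24 h and 3 of untreated knockout cells. All cells were ECC1, a human endometrial cancer line whose stocks have been reported to share the DNA profile of the Ishikawa line, and all spent 24 h in RPMI1640 with 5% charcoal-stripped serum, which removes most steroid hormones, before the treatment. The other 6 arrays hold the parental ECC1 line, 3 treated in the same way and 3 untreated. The knockout is a single line, and the labels do not say how MTDH was removed, which bases were removed or whether the line is 1 clone. Total RNA was hybridised to Illumina bead arrays, and levels are given below as the deposited log2 values, on which a difference of 1 is a doubling. The labels number the replicates 1 to 3 but do not say that they came from separate cultures, so the p-values measure only the spread between these samples.

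Estradiol acts mainly through the estrogen receptor ESR1, a nuclear receptor that binds DNA directly at estrogen response elements or indirectly through factors such as AP-1 and SP1. In endometrial epithelium the hormone promotes growth and changes the secretion of growth factors and their binding proteins, and progesterone opposes it. MTDH (metadherin) is a membrane-associated and RNA-binding protein that is often overexpressed in carcinomas.

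MTDH was 8.57, 8.53 and 8.59 on the untreated knockout arrays 1 to 3, and 10.94, 8.49 and 8.49 on the estradiol knockout arrays 1 to 3. Its untreated values stood at percentiles 83.5, 83.6 and 83.8 of their arrays, so a signal remained, whose source was not tested. In the parental line MTDH was 11.43, 11.18 and 10.78 without estradiol and 10.83, 10.96 and 8.97 with it. The array labelled knockout estradiol replicate 1 was therefore at the parental level, and the array labelled parental estradiol replicate 3 was near the knockout level. Over the 106 genes tested whose means differed by over 1 log2 unit between knockout estradiol replicates 2 and 3 and parental estradiol replicates 1 and 2, each of these arrays lay nearer the other line at 106 of 106. MTDH, whose level picked out the 2 arrays, is among the 106. Over all 19670 genes tested, the knockout array lay nearer the other line at 12151 and the parental array at 11829. The knockout response is mostly given first with 12 arrays as labelled and then with the 10 arrays that remain without these 2. The parental response is given with 10 arrays only, as are most differences between the lines. Where a pair of changes is written, the first value is from 12 arrays and the second from 10. In 10 arrays MTDH itself changed by -0.07, a value largely fixed in advance, since the 2 arrays were left out by their MTDH level. All 7 epithelial markers (EPCAM, CDH1, KRT8, KRT18, KRT19, CLDN3 and CLDN4) were above the median of the table (6.82) on every knockout array, with means from 6.90 to 12.65. Of 8 fibroblast markers 2 were above it on every knockout array, of 5 endothelial markers 1, and of 7 leukocyte markers 1.

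**Figure D1:**
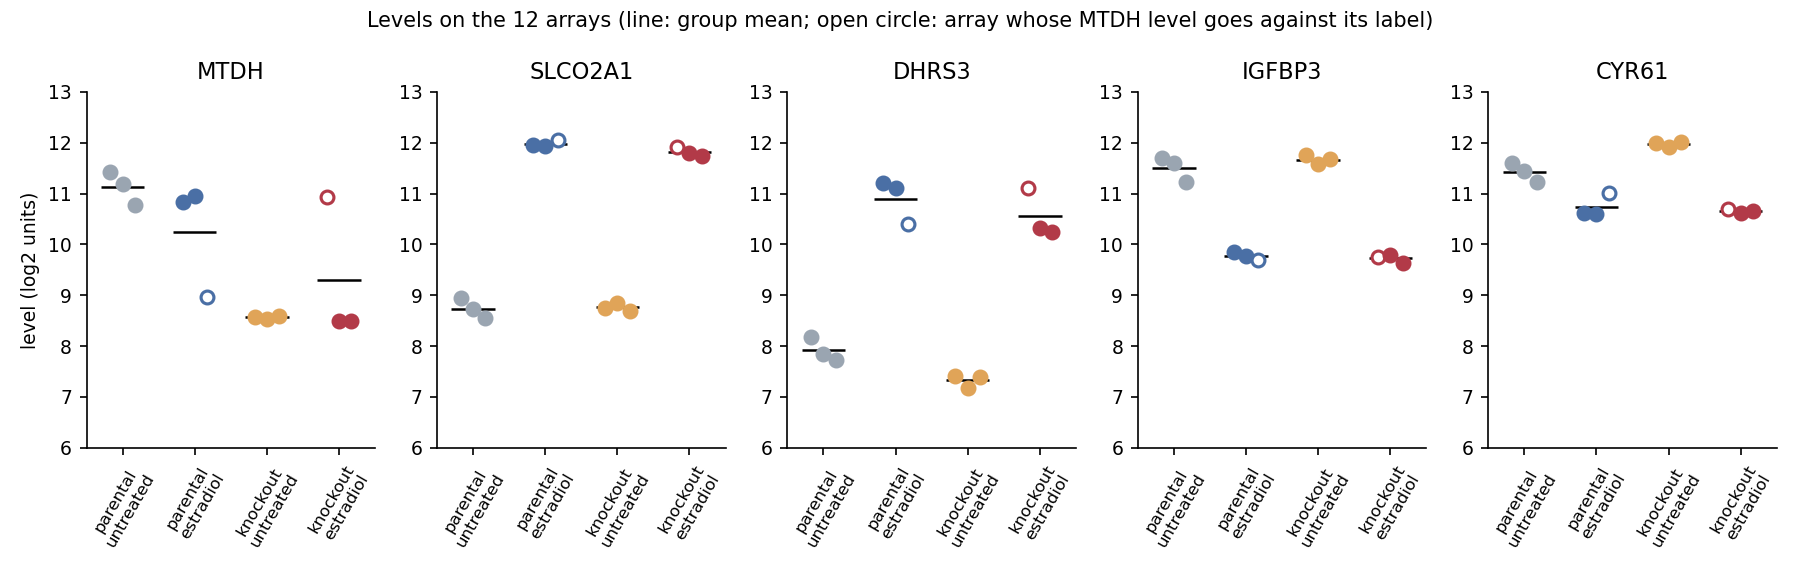
Level of MTDH and of 4 estradiol-responsive genes on each of the 12 arrays (y axis, log2 units) by labelled group (x axis); lines are group means and open circles the arrays whose MTDH level goes against the label. SLCO2A1 and DHRS3 lie above, and IGFBP3 and CYR61 below, every untreated array of the same line on all 3 knockout estradiol arrays.

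Genes rose and fell with estradiol in the knockout cells, and more fell than rose on the arrays as labelled and in the 10 arrays. That balance narrowed without 1 array and turned among larger changes. The largest rises were SLCO2A1, DHRS3, THBS1 and ALPPL2, at 6.43- to 8.03-fold in 10 arrays, and the largest falls included IGFBP3, ABCA1 and CYR61, at 2.55- to 3.85-fold. With 12 arrays, 763 of 19670 genes tested (3.88%) passed an adjusted p of 0.05, 233 higher (1.18%) and 530 lower (2.69%). With 10 arrays, 1337 genes (6.80%) passed, 499 higher (2.54%) and 838 lower (4.26%). Leaving out only the array labelled knockout estradiol replicate 1 (11 arrays) gave 641 genes, 222 higher and 419 lower. The parental array left out of the 10 enters this comparison only through the shared estimate of the spread. In both the 12-array and the 10-array fit and in the same direction, 706 genes (3.59%) passed, 215 higher (1.09%) and 491 lower (2.50%). These are the genes written of below as having risen or fallen, and these 2 fits are those called both fits. No gene passed in both with opposite signs, which was largely fixed in advance, since the 10 arrays are all among the 12. The 3 estradiol and 3 untreated values did not overlap in any of the 706. The 706 were called from these same values, so this was largely fixed in advance. Over all genes tested 4105 did not overlap (20.9%), 1196 higher (6.08%) and 2909 lower (14.8%). Of the 706, 27 rises and 12 falls were over 2-fold in 10 arrays.

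The share of rises depended on the scaling. Rises were 30.5% of the genes passing in both fits, and 44.3% of 995 after quantile normalisation (441 higher and 554 lower), where 645 of the 706 remained with the same direction. In 10 arrays alone they were 37.3%, and 47.4% after quantile normalisation. The number of genes also rested on single knockout arrays. Without untreated replicate 1, 2 or 3 the count in both fits was 317, 338 and 318. With 12 arrays, leaving out estradiol replicate 3 gave 434 genes, 199 higher and 235 lower. Leaving out estradiol replicate 2 gave 811, 144 higher and 667 lower. In the 10 arrays either step leaves 1 treated knockout array, so those counts are not given. With a minimum change of 1.5-fold, 20 rose and 7 fell in both fits. In all, 211 of the 706 (78 rises and 133 falls) passed in every fit with 1 array left out, and 25 of the 30 leading genes did so, the 15 largest rises and 15 largest falls among rows with a current symbol of their own. These genes, passing in every such fit, are called stable below. The fits behind that word include 10-array fits with a single treated knockout array, so it is description only. A leading gene also had to show no overlap of its 3 treated and 3 untreated values.

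**Figure D2:**
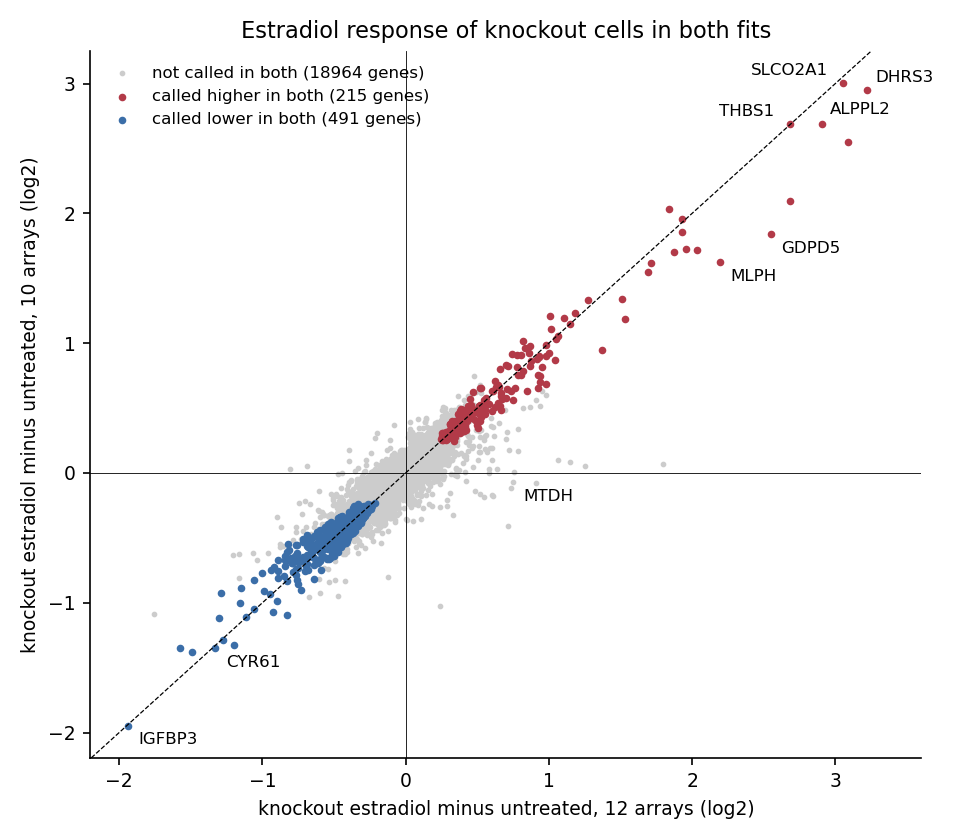
Change with estradiol in knockout cells for all genes tested, with 12 arrays (x axis, log2) and 10 arrays (y axis, log2); red points rose in both fits (215), blue points fell in both (491), and the dashed line marks equal changes. MTDH lies off the line, at 0.75 with 12 arrays and -0.07 with 10.

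Among transporters and channels, SLCO2A1, which carries prostaglandins across the cell membrane, had the largest change in 10 arrays. It was at 8.75, 8.85 and 8.69 on the untreated arrays and at 11.91, 11.80 and 11.73 on the estradiol arrays. The groups were far apart, and the array labelled estradiol replicate 1 was not set off from the other two. The change was 3.05 ± 0.09 (SE) with 12 arrays (adjusted p = 4.6e-10) and 3.00 ± 0.09 with 10 (adjusted p = 2.7e-12), an 8.03-fold rise. ANO1, a calcium-activated chloride channel, was at 7.22, 7.17 and 7.12 without estradiol and at 11.03, 9.36 and 9.18 with it. All estradiol arrays were higher, and the array labelled replicate 1 stood well above the other two. Its changes were 2.69 and 2.10, and a further row under the older name TMEM16A gave 3.09 and 2.55. CACNA1I, a T-type calcium channel subunit, rose by 1.93 and 1.85, and SLC6A12, a betaine and GABA transporter, by 2.03 and 1.71.

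Among enzymes, DHRS3, which reduces retinaldehyde to retinol, was at 7.42, 7.18 and 7.40 without estradiol and at 11.10, 10.32 and 10.24 with it. The groups did not overlap, and the array labelled estradiol replicate 1 was the highest. The change was 3.22 ± 0.23 with 12 arrays (adjusted p = 3.3e-06) and 2.95 ± 0.11 with 10 (adjusted p = 1.9e-11), or 7.72-fold. ALPPL2 (now ALPG), an alkaline phosphatase of the placental family, was at 7.41, 7.35 and 7.22 without estradiol and at 10.67, 10.07 and 9.96 with it. Again all estradiol values lay above all untreated values, and the change was 2.91 and 2.68, a 6.43-fold rise in 10 arrays. Its close paralog ALPP, which is nearly identical in sequence and whose transcripts a probe may share, had changes of 0.19 and 0.06 and did not pass. PIM1, a serine/threonine kinase, was at 7.15, 7.09 and 6.92 without and at 8.50, 9.22 and 8.96 with estradiol, changes of 1.84 and 2.03. Here the array labelled estradiol replicate 1 was the lowest of the treated arrays. CKB, the brain-type creatine kinase known as an estrogen-induced protein of the rat uterus, rose by 1.88 and 1.70, and CA2, a carbonic anhydrase, by 1.71 and 1.62. GDPD5, a glycerophosphodiester phosphodiesterase, was at 7.01, 7.01 and 7.04 without estradiol and at 10.99, 8.95 and 8.78 with it. Its changes were 2.55 and 1.84, and with 12 arrays it no longer passed without any 1 of the untreated knockout arrays.

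Among secreted and regulatory proteins, THBS1 (thrombospondin 1, a matricellular glycoprotein) was at 9.23, 9.24 and 9.23 without estradiol and at 11.91, 12.02 and 11.81 with it. The 3 values within each group were close together, and the change was 2.68 and 2.69, or 6.44-fold. G0S2, an inhibitor of the lipase that opens lipid droplets, went from 7.15, 7.13 and 7.08 to 9.01, 9.21 and 8.94, changes of 1.93 and 1.95. NRTN (neurturin, a ligand of the GDNF family) rose by 1.95 and 1.73, and HES2, a transcriptional repressor of the HES family, by 1.69 and 1.54. MLPH, which links RAB27A on vesicles to myosin, was at 7.05, 7.05 and 7.03 without estradiol and at 10.37, 8.72 and 8.61 with it. Its changes were 2.19 and 1.62, and with 12 arrays it no longer passed without untreated knockout replicate 2 or 3.

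Among falling genes, IGFBP3, a secreted protein that binds insulin-like growth factors, had the largest change. It was at 11.76, 11.58 and 11.67 without estradiol and at 9.75, 9.80 and 9.64 with it, so the groups were well apart and the 3 treated arrays alike. The change was -1.94 ± 0.10 with 12 arrays (adjusted p = 2.0e-07) and -1.95 ± 0.11 with 10 (adjusted p = 3.7e-09), a 3.85-fold fall. CYR61 (now CCN1), a matricellular protein and target of YAP and TEAD, was at 12.001, 11.93 and 12.02 without estradiol and at 10.70, 10.61 and 10.65 with it. All treated arrays were lower by more than 1 unit, and the change was -1.33 ± 0.11 (adjusted p = 1.4e-05) and -1.35 ± 0.09 (adjusted p = 4.8e-08), or 2.55-fold. CTGF (now CCN2), of the same family, was at 9.56, 9.32 and 9.27 and then at 7.72, 8.38 and 8.15. Its changes were -1.30 and -1.12, with the array labelled estradiol replicate 1 the lowest. JAG1, a ligand of Notch receptors, was at 9.18, 9.15 and 9.01 without estradiol and at 7.87, 7.83 and 7.82 with it, changes of -1.27 and -1.29. NOTCH3, a receptor of that pathway, changed by -0.90 and -0.99.

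ABCA1, which exports cholesterol to apolipoproteins, was at 10.00, 10.15 and 10.14 without estradiol and at 8.37, 8.69 and 8.76 with it, changes of -1.49 and -1.38. All treated values lay below all untreated values. EMP1, a tetraspan protein of epithelial membranes, changed by -1.20 and -1.33, and CRISPLD2, a secreted glycoprotein, by -1.06 and -1.05. ALPK2, an alpha-kinase, changed by -1.16 and -1.003, GPR110 (now ADGRF1), an adhesion G protein-coupled receptor, by -0.99 and -0.91, and KRT80, a keratin, by -0.94 and -0.94. A further 3 of the 15 leading falls were not stable. HAPLN3, a link protein of hyaluronan, changed by -0.83 and -1.10 and missed the threshold in 5 of 12 fits of 12 arrays with 1 left out. SAT1, which acetylates spermidine and spermine, changed by -1.29 and -0.92 and missed it in 4. KRT17, a keratin, changed by -0.73 and -0.90 and missed it in 6, and after quantile normalisation.

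**Figure D3:**
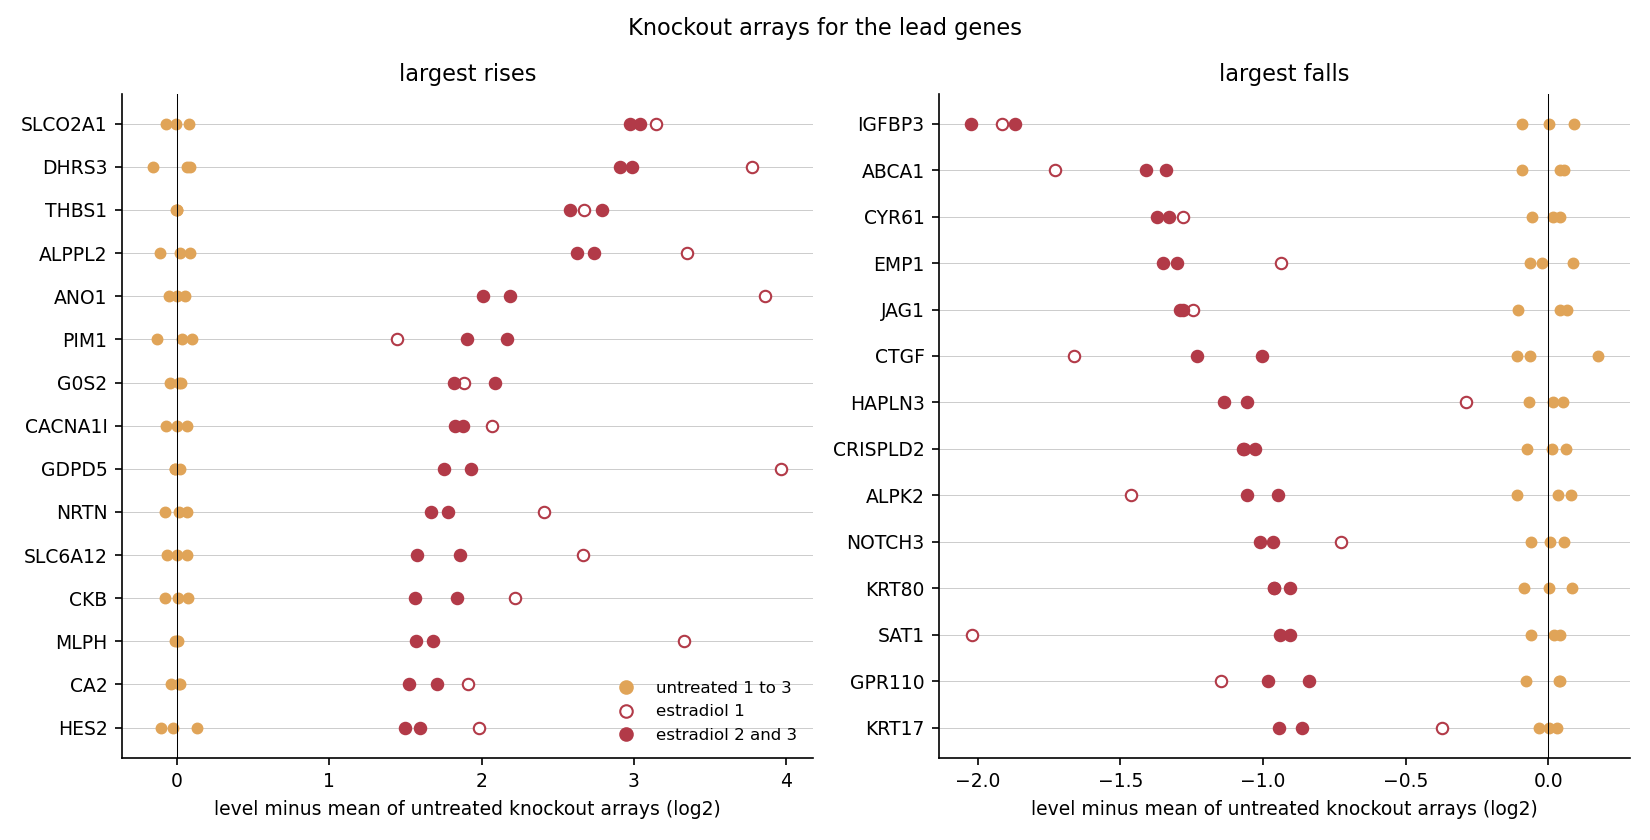
Level on each knockout array minus the mean of the untreated knockout arrays (x axis, log2) for genes among the 15 leading rises and 15 leading falls (y axis); the open circle is the array labelled estradiol replicate 1. No treated value overlaps an untreated value, which was a condition for choosing these genes. The open circle stands apart from the filled red circles in genes such as GDPD5, MLPH, SAT1 and HAPLN3.

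Promoter windows of 300 bases, from 250 before to 50 after the RefSeq start (build GRCh38.p14), are shown for a leading rise and a leading fall, and for a further rise and fall that hold the element GGTCA. They are DHRS3 (chr1:12618161-12618460, minus strand), IGFBP3 (chr7:45921223-45921522, minus strand), ALPPL2 (chr2:232406594-232406893, plus strand) and CTGF (chr6:131951323-131951622, minus strand). The latter pair, ALPPL2 and CTGF, was added after the windows had been searched. Each is written 5′ to 3′ on the strand of the gene, and capitals mark matches, on either strand, to the full estrogen response element (GGTCA and TGACC with any 3 bases between them), its arm GGTCA, the AP-1 element TGANTCA or the SP1 element GGGCGG. The arm is part of the full element, and neighbouring SP1 matches may overlap.
DHRS3 promoter: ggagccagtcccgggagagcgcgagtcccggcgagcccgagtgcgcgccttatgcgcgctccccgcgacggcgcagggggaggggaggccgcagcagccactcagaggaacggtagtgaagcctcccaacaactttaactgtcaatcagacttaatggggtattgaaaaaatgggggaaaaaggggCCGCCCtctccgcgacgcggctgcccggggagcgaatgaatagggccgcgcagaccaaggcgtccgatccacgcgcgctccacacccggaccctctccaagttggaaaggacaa
IGFBP3 promoter: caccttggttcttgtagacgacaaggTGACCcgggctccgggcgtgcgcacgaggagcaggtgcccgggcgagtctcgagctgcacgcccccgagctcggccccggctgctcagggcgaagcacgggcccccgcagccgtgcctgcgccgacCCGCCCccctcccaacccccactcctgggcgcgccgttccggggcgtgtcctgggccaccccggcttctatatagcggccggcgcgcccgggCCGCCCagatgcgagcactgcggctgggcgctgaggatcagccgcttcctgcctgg
ALPPL2 promoter: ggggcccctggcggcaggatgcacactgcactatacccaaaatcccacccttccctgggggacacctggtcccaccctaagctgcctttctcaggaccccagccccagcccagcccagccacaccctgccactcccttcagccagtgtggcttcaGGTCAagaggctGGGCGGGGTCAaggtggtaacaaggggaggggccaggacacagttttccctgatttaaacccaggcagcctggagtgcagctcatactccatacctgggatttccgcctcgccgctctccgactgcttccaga
CTGF promoter: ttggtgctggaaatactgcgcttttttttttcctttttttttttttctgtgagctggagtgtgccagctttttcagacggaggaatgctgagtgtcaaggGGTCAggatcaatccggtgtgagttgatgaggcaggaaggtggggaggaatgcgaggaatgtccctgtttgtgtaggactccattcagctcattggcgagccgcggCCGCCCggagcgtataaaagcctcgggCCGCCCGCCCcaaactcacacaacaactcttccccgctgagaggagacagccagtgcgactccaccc
The DHRS3 window held 1 SP1 match, at bases 187 to 192 of the window, and none of the others. The IGFBP3 window held the GGTCA arm at bases 27 to 31 and SP1 matches at 153 to 158 and 245 to 250. The ALPPL2 window held the GGTCA arm at 156 to 160 and 174 to 178, on either side of an SP1 match at 168 to 173. The CTGF window held the GGTCA arm at 101 to 105 and 3 SP1 matches, of which those at 234 to 239 and 238 to 243 overlap.

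These letters were common. The GGTCA arm was in 37.7% of all 27305 RefSeq windows and in 34.9% of the 9911 windows of genes tested, against 37.6% (44 of 117) of the rises and 28.5% (96 of 337) of the falls that had a window. The SP1 element was in 44.6% of all windows, in 68.9% of those of genes tested, in 75.2% of rises and in 69.1% of falls. The AP-1 element was in 7.76%, 4.55%, 6.84% and 4.75% of the same sets. The full element was in 18 of all windows (0.0659%), in 1 of the genes tested and in none of the rises or falls. Of the 30 leading genes 23 had a window: 18 held the SP1 element, 5 the GGTCA arm and 1 the AP-1 element. Those without a window included SLCO2A1, SLC6A12, CA2, CYR61, KRT80 and KRT17.

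The hormone's own receptor was expressed in the knockout cells. ESR1 was at 9.86, 9.83 and 10.01 without estradiol and at 9.34, 9.62 and 9.70 with it. All treated values were lower, but the change of -0.35 and -0.24 passed only with 12 arrays (adjusted p = 0.0498) and not with 10 (adjusted p = 0.086). PGR, the progesterone receptor and a classical estrogen target, was near the median of the table, at 6.73, 6.60 and 6.63 without and 6.93, 6.78 and 6.74 with estradiol, a change of 0.17 and 0.11 that did not pass. GREB1, an estrogen-induced cofactor of ESR1, also changed by 0.17 and 0.11 and did not pass. TFF1, a secreted trefoil peptide and classical target in breast cells, was at 6.58 to 6.69 on all 6 knockout arrays and was too dim to be tested. CCND1 (cyclin D1) was at 12.23 to 12.37 without and 12.35 to 12.91 with estradiol, a change of 0.28 and 0.11 that did not pass.

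Of 24 classical estrogen-induced genes tested, 7 rose and 1 fell, with a median change of 0.17 and 0.09 over the list against -0.02 and -0.02 over all genes tested. Beside the counts of this and every later list stand shares of 1.09% higher and 2.50% lower over all genes tested. The lists were chosen with earlier results of these data known, so their counts are description only. TGFA, a ligand of the EGF receptor, rose by 1.51 and 1.34 from 10.08, 9.89 and 9.88 to 11.80, 11.40 and 11.18. CA12, a membrane carbonic anhydrase, rose by 1.18 and 1.23 from 7.28, 7.45 and 7.50 to 8.50, 8.75 and 8.53. SLC7A5, a transporter of large neutral amino acids, rose by 1.15 and 1.15 from 12.30, 12.10 and 12.13 to 13.32, 13.46 and 13.20. In none of these did the groups overlap. NRIP1, a corepressor of nuclear receptors, rose by 0.76 and 0.66, SIAH2, a ubiquitin ligase, by 0.70 and 0.83, IL17RB, an interleukin receptor, by 0.50 and 0.34, and RARA, a retinoic acid receptor, by 0.40 and 0.32. The protease CTSD changed the other way, by -0.46 and -0.41. The stable members were CA12, NRIP1, TGFA and SLC7A5.

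Of 21 estrogen-repressed and growth arrest genes, 8 fell, against 2.50% of all genes tested, and none rose (median -0.27 and -0.22). SOX4, a transcription factor, changed by -0.80 and -0.65, and TP53INP1, a p53-induced nuclear protein, by -0.53 and -0.65. BTG2 and BTG1, both antiproliferative, changed by -0.57 in both fits and by -0.52 and -0.47. TGFB2, a TGF-beta ligand, changed by -0.56 and -0.51, and CCNG2, an atypical cyclin of growth arrest, by -0.51 and -0.46. YPEL3 and BMF, the latter a pro-apoptotic member of the BCL2 family, also fell. TGFB2, BTG2 and SOX4 were stable.

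Of 16 steroid receptors and cofactors, NRIP1 rose and NR3C2, the mineralocorticoid receptor, fell (-0.53 and -0.41). In the list headed estrogen-metabolising enzymes (18 tested), HSD11B2 rose by 0.94 and 0.70 and SULT2B1, a sulfotransferase, changed by -0.30 and -0.28. HSD11B2 inactivates cortisol, which is not an estrogen, and neither gene was stable. ALPPL2 was 1 of 4 alkaline phosphatase genes to rise, and SLCO2A1 1 of 16 prostaglandin genes. Of 20 retinoid genes, 2 rose (DHRS3 and RARA) and 3 fell, among them STRA6 (the retinol transporter, -0.33 and -0.34) and TGM2 (transglutaminase 2, -0.49 and -0.39). Of 16 genes of the insulin-like growth factor axis only IGFBP3 passed in both fits, while 1 rose and 3 fell with 10 arrays. Of 12 EGF family ligands and receptors, TGFA rose and the receptor ERBB3 fell (-0.50 and -0.59). Of 16 feedback genes of the ERK pathway, SPRY1, which restrains receptor tyrosine kinase signalling, fell (-0.75 and -0.62).

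Integrin and contractile genes had the highest count of falls among the 38 lists: of 21 tested 10 fell and none rose (median -0.38 and -0.37). Over all genes tested 2.50% fell and 1.09% rose. Because the lists were chosen with earlier results of these data known, this ranking was not independent of the data. TPM1, a tropomyosin, was at 9.83, 9.73 and 9.78 without estradiol and at 8.84, 9.29 and 9.14 with it, a change of -0.69 and -0.56. The integrin subunits ITGB3, ITGA3 and ITGAV changed by -0.79 and -0.69, by -0.57 and -0.64, and by -0.50 and -0.62. CALD1 and MYL9, a caldesmon and a myosin light chain, changed by -0.56 and -0.45 and by -0.46 and -0.37. Of the 10, ITGA3, ITGB3 and TPM1 were stable. Of 17 YAP and TEAD target genes 4 fell (CYR61, CTGF, TGFB2 and the kinase NUAK2, the last by -0.45 and -0.57) and none rose, with a median of -0.30 and -0.21. NUAK2 did not pass after quantile normalisation. Of 8 matricellular genes, THBS1 rose while CYR61, CTGF and THBS3 (-0.46 and -0.38) fell.

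Of 23 epithelial junction genes 7 fell and 1 rose (median -0.14 and -0.25), against 2.50% lower and 1.09% higher over all genes tested. JUP (plakoglobin) was at 9.17, 9.14 and 8.98 without estradiol and at 8.30, 8.46 and 8.27 with it, a change of -0.75 and -0.73. CLDN1, a claudin of tight junctions, changed by -0.74 and -0.67 and CTNNA1 (alpha-catenin) by -0.40 and -0.42. These 3 were stable. DSP (desmoplakin), CGN (cingulin), CDH1 (E-cadherin) and TJP1 changed by -0.54, -0.54, -0.48 and -0.31 in 10 arrays and were not stable, and DSP and CGN did not pass after quantile normalisation. CLDN3 rose by 0.60 and 0.48. Of 11 keratin genes KRT5 (-0.70 and -0.75), KRT80 and KRT17 fell and none rose.

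In the Notch pathway 5 of 16 genes fell and 1 rose (median -0.18 and -0.14), against 2.50% lower and 1.09% higher over all genes tested. Besides JAG1 and NOTCH3, the target repressor HES1 was at 9.64, 9.40 and 9.54 without estradiol and at 8.47, 8.91 and 8.54 with it, a change of -0.89 and -0.81. The related repressors HES4 and HEYL changed by -0.64 and -0.82 and by -0.92 and -0.72 and were not stable. MFNG (manic fringe), a glycosyltransferase that modifies Notch receptors, rose from 7.24, 7.07 and 7.13 to 8.23, 8.18 and 8.22, by 1.06 and 1.05. The lead rise HES2 carries the family name but was not a member of the list. Of 13 Wnt genes, the receptor FZD5 rose (0.42 and 0.45), and the receptor FZD7 (-0.47 and -0.49) and DKK3 (-0.64 and -0.57) fell. Of 19 TGF-beta, activin and BMP genes TGFB2 was the only 1 to pass in both fits, while 1 rose and 6 fell with 10 arrays.

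**Figure D4:**
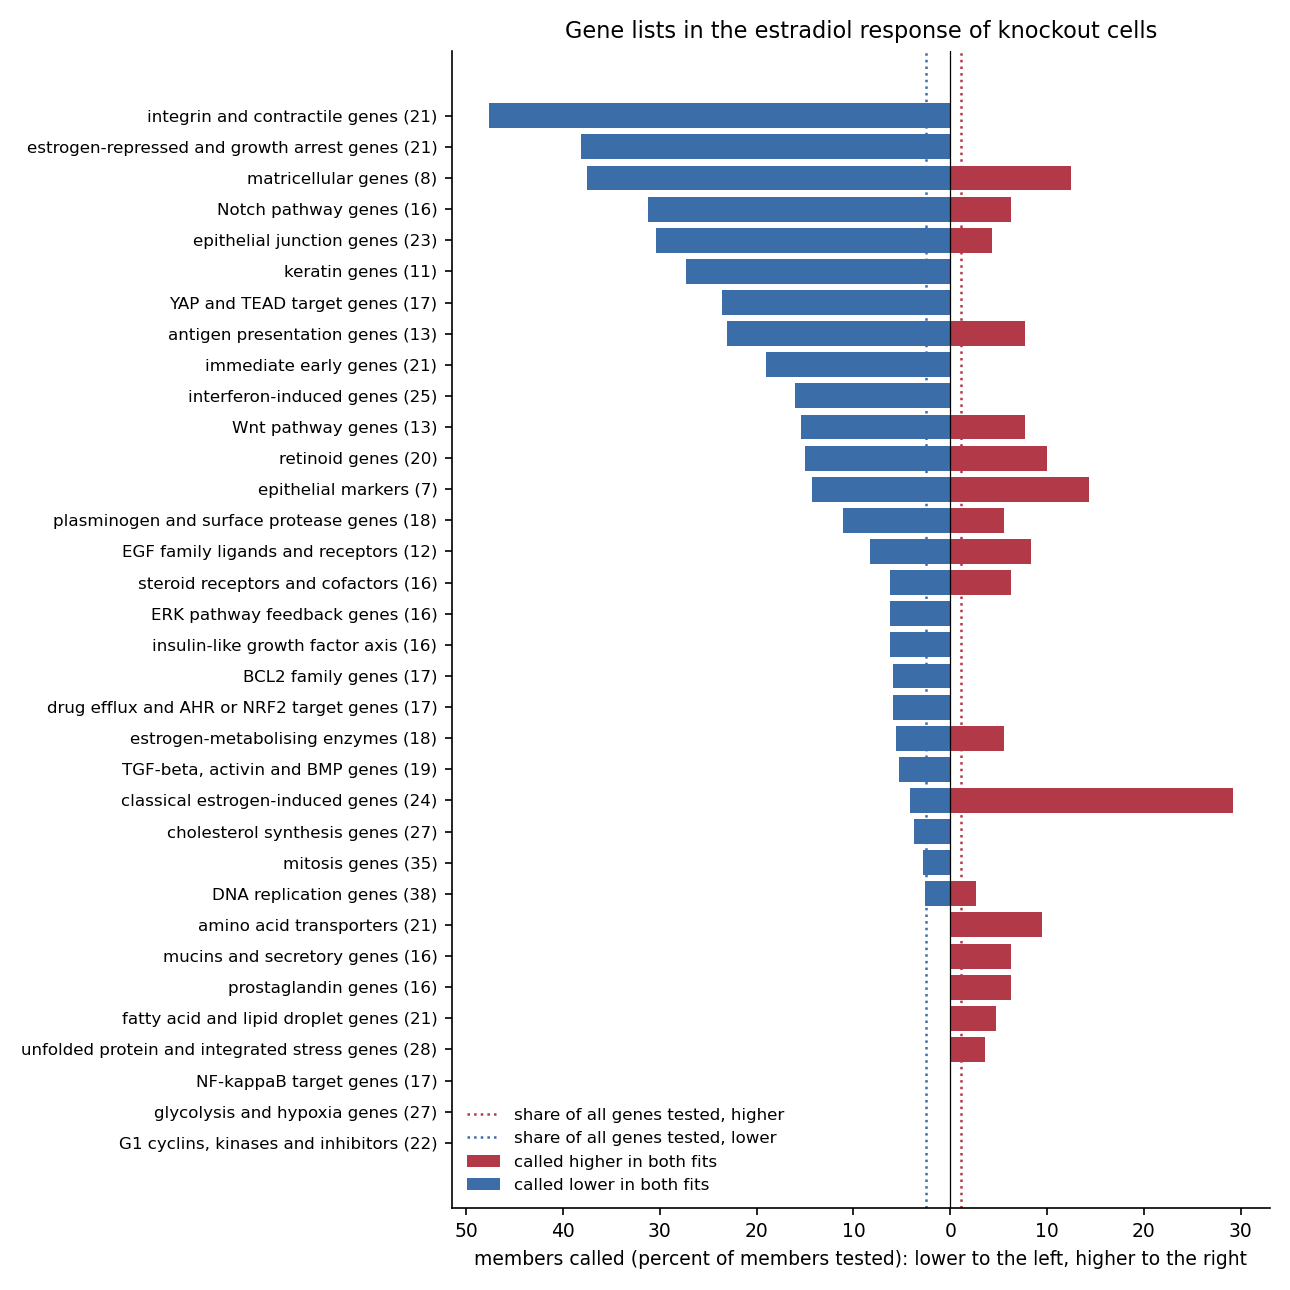
Share of the members tested (x axis, percent; number tested in parentheses) that rose (red, right) or fell (blue, left) in both fits for the gene lists named on the y axis; dotted lines are the shares over all genes tested, 1.09% higher and 2.50% lower. Integrin and contractile genes reach furthest to the left and classical estrogen-induced genes furthest to the right.

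Proliferation genes passed in both fits at about the rate of all genes tested (3.59%). Of 38 DNA replication genes UHRF1, a methylation reader, rose (0.50 and 0.37) and POLE, a polymerase subunit, fell (-0.34 and -0.37), of 35 mitosis genes KIF23, a kinesin of cytokinesis, fell (-0.30 and -0.33), and none of 22 G1 cyclins, kinases and inhibitors passed in both fits. None of these 3 was stable. With 10 arrays 3 of the mitosis genes rose and 1 fell, and 1 G1 gene rose and 1 fell. Of 21 immediate early genes 4 fell (BTG2, JUN at -0.40 and -0.38, JUNB at -0.35 and -0.33, and KLF2 at -0.40 and -0.47) and none rose. Of 17 BCL2 family genes only BMF passed in both fits (-0.24 and -0.24), while 2 rose and 2 fell with 10 arrays.

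In the metabolic and stress lists 0 to 2 members passed in both fits. Of 21 amino acid transporters SLC7A5 and its heavy-chain partner SLC3A2 rose, the latter by 0.71 and 0.65 from 10.79, 10.68 and 10.78 to 11.57, 11.47 and 11.32, with no overlap, and both were stable. Of 27 cholesterol genes only ABCA1 passed in both fits, of 21 fatty acid and lipid droplet genes only G0S2, and of 27 glycolysis and hypoxia genes none. With 10 arrays 1 cholesterol gene rose and 3 fell, 3 lipid genes rose, and 2 glycolysis and hypoxia genes rose. Of 28 unfolded protein and integrated stress genes SDF2L1, an endoplasmic reticulum chaperone partner, rose by 0.33 and 0.30. Of 17 drug efflux, AHR and NRF2 target genes ABCC3, an efflux pump, fell (-0.78 and -0.77) from 9.59, 9.65 and 9.67 to 8.81, 8.85 and 8.89. Of 16 mucins and secretory genes only MLPH passed in both fits, while 1 rose and 2 fell with 10 arrays.

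Among immune genes, 4 of 25 interferon-induced genes fell, against 2.50% of all genes tested, and none rose (median -0.18 and -0.15). They were STAT2 (-0.40 and -0.50), IFITM1 (-0.56 and -0.41), IRF1 (-0.26 and -0.24) and IFITM3 (-0.46 and -0.39). None was stable. Of 13 antigen presentation genes 3 fell, among them HLA-E (-0.81 and -0.59) and HLA-DMA (-0.84 and -0.64), and the immunoproteasome subunit PSMB10 rose (0.47 and 0.62). HLA genes share much of their sequence, and how probes divide them is not given. None of 17 NF-kappaB targets passed. Of 18 plasminogen and surface protease genes PLAT, the tissue plasminogen activator, rose from 8.91, 9.03 and 8.86 to 9.54, 10.22 and 10.06 (1.01 and 1.21), and the inhibitors TIMP2 (-0.94 and -0.75) and SPINT1 (-0.32 and -0.37) fell. None of these 3 was stable.

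The lists of markers of other cell types had low means in the line, but single members were higher. COL1A1, of the fibroblast list, was at 8.10, 8.15 and 8.15 on the untreated knockout arrays. VWF, of the endothelial list, was at 7.48, 7.53 and 7.51 there. The mean level over the fibroblast list was 6.92 to 6.97 on untreated and 6.79 to 6.86 on estradiol arrays, near the median of the table, and of the 4 tested COL1A1 (-0.66 and -0.61) and COL3A1 (-0.38 and -0.37), both collagens, fell. The endothelial list ranged from 6.84 to 6.85 and from 6.74 to 6.85, and its only tested member, VWF, fell (-0.31 and -0.29) but not after quantile normalisation. The leukocyte list ranged from 6.72 to 6.76 and from 6.69 to 6.78, and none of its 3 tested members passed. The epithelial list ranged from 10.24 to 10.36 and from 10.08 to 10.45, with CLDN3 higher and CDH1 lower. A smaller share of responding cells and less RNA per cell cannot be told apart in such bulk samples.

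In the parental line, whose untreated arrays are different arrays, estradiol changed 2114 genes (10.7%) in 10 arrays, 317 higher (1.61%) and 1797 lower (9.14%). Of the 706 genes of the knockout response, 432 passed there in the same direction, 4 in the opposite direction and 270 did not pass. The 706 had to pass also with the array labelled knockout estradiol replicate 1, which lay nearer the parental line. That choice favours genes with like treated levels in both lines, so the overlap was partly fixed in advance. The difference between the responses was tested directly: 148 genes (0.752%) passed in 10 arrays, 95 above 0 (0.483%, knockout change minus parental change) and 53 below (0.269%), and 30 of the 706 were among them. With 12 arrays as labelled 1 gene passed (0.00508%), LOC730255, at a difference of 0.72 (adjusted p = 0.0334), while 2069 had an unadjusted p under 0.05. After quantile normalisation the split was 83 above 0 and 155 below.

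For most of the leading genes the difference did not pass. SLCO2A1 changed by 3.00 in the knockout and 3.20 in the parental line in 10 arrays (difference -0.20, adjusted p = 0.56), DHRS3 by 2.95 and 3.23 (difference -0.29, adjusted p = 0.45), IGFBP3 by -1.95 and -1.69 (difference -0.26, adjusted p = 0.50) and CYR61 by -1.35 and -0.82 (difference -0.53, adjusted p = 0.067). ALPPL2 rose less in the knockout, by 2.68 against 3.70, a difference of -1.02 (adjusted p = 0.0020), and MLPH by 1.62 against 2.89, a difference of -1.26 (adjusted p = 8.4e-06). PIM1 rose more, by 2.03 against 1.37 (difference 0.67, adjusted p = 0.027). ALPK2 fell further in the knockout (-1.003 against -0.48, adjusted p = 0.039), KRT17 less far (-0.90 against -1.35, adjusted p = 0.039), and ITGAV changed by -0.62 in the knockout against -0.04 (difference -0.58, adjusted p = 0.039). No difference of these 6 genes passed with 12 arrays, where that of MLPH was -0.18. The DHRS3 difference took the other sign there, at 0.24. In 10 arrays the differences of PIM1, ALPK2, KRT17 and ITGAV each missed the threshold without parental untreated replicate 2, among other fits. The same held without knockout untreated replicate 2 or 3.

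**Figure D5:**
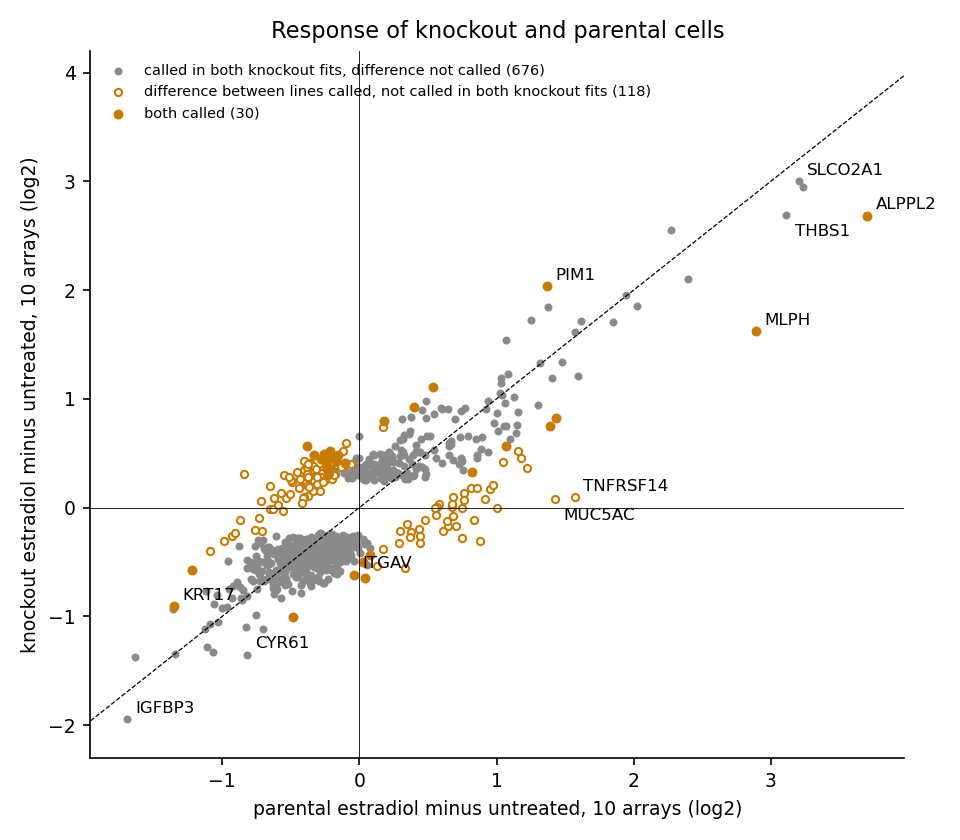
Change with estradiol in parental cells (x axis, log2) against knockout cells (y axis, log2) in 10 arrays; grey points are genes of the knockout response, orange circles genes whose difference between lines passed, filled where both hold (30), and the dashed line marks equal changes. SLCO2A1 and THBS1 lie near the line, ALPPL2 and MLPH below it and PIM1 above it.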

How the data were processed

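Total RNA of 12 ECC1 samples was measured on Illumina bead arrays, per the labels. The authors deposited 1 table of log2 values with 34595 rows and no missing value. How they normalised it and combined probes into rows is not given in the sources used here. Array medians ran from 6.78 to 6.86. The number of arrays limits the precision.

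Rows were matched to RefSeq symbols: 17585 by current symbol, 1798 by an older symbol of 1 gene, 405 by an older symbol whose gene has another row, 118 matched several genes and 14689 none. The 19670 genes whose value exceeded 6.82, the table's median, on 3 or more arrays were tested. limma 3.58.1 in R 4.3.3 fitted 1 mean per labelled group (lmFit and eBayes, two-sided), to 12 arrays and to 10 arrays, with Benjamini-Hochberg adjustment over all genes tested and a threshold of 0.05. The script was tested on simulated data. Named genes were the 15 largest rises and 15 largest falls by the 10-array change among genes passing in both fits without overlap (rows without a current symbol of their own, such as TMEM16A, MGC61598 and CCBP2, were skipped), up to 6 members passing in both from each of 38 lists, the genes SLCO2A1, DHRS3, IGFBP3, CYR61, MTDH, ESR1, PGR, GREB1, TFF1, MYC and CCND1, and the 6 largest differences between lines in each direction. YPEL3, CTSD, TJP1 and ALPP are named beside these. A few genes that the rule names are not reported here. The members and lists were chosen with earlier results of these data known. Alternatives were other filters, scalings, variance priors, array weights, thresholds, array sets and a replicate block, and each array left out.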

Additional observations from a re-analysis of the deposited data

Results flagged for a closer look

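In 10 arrays the response to estradiol differed between the lines at 148 genes, by limma's test of the difference itself. Below, each difference is the knockout change minus the parental change on the log2 scale. With 12 arrays as labelled only LOC730255 passed, and no cause of the differences was tested.

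Among genes of the knockout response, MLPH differed by -1.26 and ALPPL2 by -1.02. Both passed in every 10-array fit with 1 untreated array left out. With 12 arrays as labelled their differences were -0.18 and -0.69. PIM1 differed by 0.67, KRT17 by 0.45, ALPK2 by -0.52 and ITGAV by -0.58.

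Of the differences below 0, 4 more are named, at genes that rose in the parental line and did not pass in the knockout. TNFRSF14, a receptor of the TNF family, differed by -1.47, the mucin MUC5AC by -1.34 and the collagen COL15A1 by -1.01. With 12 arrays as labelled TNFRSF14 and MUC5AC took the other sign, at 0.40 and 0.79, and COL15A1 was at -0.33. TNFRSF14 was at 10.05 on the array labelled knockout estradiol replicate 1 and at 7.21 and 7.10 on replicates 2 and 3. MUC5AC was at 10.17 against 7.02 and 6.91. On the array labelled parental estradiol replicate 3 they were at 7.24 and 6.98, each below every untreated parental value. SNORD3A, a small nucleolar RNA, differed by -1.02.

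Besides PIM1 and KRT17, 6 differences above 0 are named, at genes that fell in the parental line. FCF1, a ribosome assembly factor, differed by 1.15, OAZ2, an inhibitor of polyamine synthesis, by 0.85, PTMA (prothymosin alpha) by 0.79 and NDST1, a heparan sulfate sulfotransferase, by 0.76. TMSL3 and FTHL3, names that belong to near-identical copies of other genes, differed by 0.71 and 0.70. All 6 were highest, among the knockout estradiol arrays, on replicate 2.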

How the results depend on the processing

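In its knockout change, no named gene that passed in both fits took the other sign in any alternative run. The count in both fits (706) was 254 at an adjusted p of 0.01, 27 with a minimum change of 1.5-fold, and 317 to 899 with 1 array left out. With 12 arrays (763) these counts were 271, 27 and 323 to 1105. With 10 arrays (1337) they were 583, 43 and 799 to 1781, and the count was 802 with array weights and 641 with 11 arrays, in which only the array labelled knockout estradiol replicate 1 was left out. The difference between lines (148) was the least settled: 238 after quantile normalisation, 239 after median centring, 28 at 0.01, 3 with the minimum change (MLPH, MUC5AC and TNFRSF14), 3 with 11 arrays (LOC100130070, LOC642989 and LOC730255) and 19 to 737 with 1 array left out. Fewer arrays gave fewer genes in some fits and more in others, and no cause of the changes in count was tested.

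The deviations of same-numbered untreated and estradiol knockout arrays from their group means correlated at -0.06, -0.02 and 0.13. Those of unlike-numbered arrays ran from -0.17 to 0.19. With 3 arrays in a group such correlations cannot decide whether the numbers pair the samples, and the labels do not say. With the replicate number as a block the counts were 823 (12 arrays), 1342 (10 arrays), 758 (both) and 470 (difference).

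Knockout changes that took the other sign all belonged to genes that did not pass in both fits. Without knockout estradiol replicate 1, the 12-array changes became -0.069 for MTDH, 0.065 for MYC, 0.087 for TMSL3 and -0.0072 for COL15A1, and without replicate 2 FCF1 became -0.11. With 1 array left out, 12-array changes ranged from -0.069 to 1.15 (MTDH), -0.18 to 0.065 (MYC), -0.11 to 0.34 (FCF1), -0.29 to 0.087 (TMSL3) and -0.0072 to 0.53 (COL15A1), and 10-array changes from -0.14 to 0.75 (FCF1), -0.33 to 0.11 (NDST1), -0.055 to 0.23 (TMSL3), -0.048 to 0.31 (FTHL3) and -0.051 to 0.024 (COL15A1). COL15A1 was 0.00029 after median centring.

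Of the 97 named genes that passed in both fits, 47 passed in every fit with 1 array left out. Leaving out untreated knockout replicate 1, 2 or 3 cost 38, 39 and 40 of them, estradiol replicate 3 cost 37, replicate 2 cost 21 and the array labelled estradiol replicate 1 cost 15. After quantile normalisation 3 of 19 TGF-beta, activin and BMP genes fell, 2 of 35 mitosis genes rose and 2 fell, 2 of 27 glycolysis and hypoxia genes rose, and 1 of 27 cholesterol genes rose and 2 fell. Signal over background limits what can be said of dim genes such as PGR, GREB1 and TFF1.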
